A study of Mus musculus with 8 samples.

Results

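The vascular endothelial growth factor (VEGF) genes and their receptors were followed through cultured mouse islets as 8 genes: the ligands Vegfa and Vegfb, the receptors Flt1 and Kdr, the co-receptors Nrp1 and Nrp2, the angiopoietin receptor Tek and its ligand Angpt1. The 8 genes were chosen by name, and all 8 were among the 17362 genes of the deposited table. Vegfa transcripts were found mainly in the endocrine columns and in the columns labelled muscle, whereas the endothelial columns held 97.2% of Flt1 counts, 95.8% of Kdr counts and 80.2% of Tek counts. Forskolin went with lower Vegfa in beta and delta cells of both genotypes and with higher Vegfa in the muscle columns of the wild type.

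Islet capillaries are dense and fenestrated, and endocrine cells attract and keep them by secreting VEGF-A. VEGF-A signals through Kdr (VEGFR2), the main signaling receptor of endothelial cells, while Flt1 (VEGFR1) binds VEGF-A tightly, signals weakly and acts largely as a decoy, and also binds VEGF-B. The neuropilins Nrp1 and Nrp2 are co-receptors for VEGF and for class 3 semaphorins. Tek (Tie2) is held active by Angpt1, usually made by mural cells, and is opposed or weakly activated by Angpt2, which endothelial cells store and release themselves.

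Nuclei came from islets of wild type (WT) mice and of whole-body Med14 S983A knock-in mice, which carry a serine to alanine change in the Mediator subunit Med14 in endothelial and endocrine cells alike. Islets of each genotype were kept untreated (CON), given Exendin-4 (Ex-4, 10 nM for 16 h) or given forskolin (FSK, also for 16 h). Exendin-4 activates the GLP-1 receptor, and forskolin activates adenylyl cyclase. The sources used here give neither the islet dose of FSK nor the age, sex and number of the mice. All islets were picked by hand and held in culture medium before nuclei were sorted. The table gave 1 pooled value per condition and cell type, 54 columns for 6 conditions and 9 types, and the 8 sublibraries each mixed all 6 conditions. No replicate of a condition was therefore at hand, no test between conditions was possible, and condition cannot be told apart from islet preparation or barcoding well.

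Levels are given as CP10K, the counts of a gene per 10000 counts of its column, with exact 95% Poisson intervals, and ratios of 2 columns with exact 95% conditional intervals; all intervals cover counting error only, not the variation between mice or preparations. Column totals ran from 1522 to 3094377 counts, with 1915006 to 3094377 in beta cells and 55536 to 159305 in endothelial cells. A ratio was called when it passed 1.5-fold either way with an interval that left out 1. The 2 columns together needed 20 or more counts. The share of all genes called by that rule is printed as the background. For beta, alpha and delta columns it stands where a comparison first appears, and for endothelial columns after the Nrp2 values. It was not computed for the other cell types, whose ratios are given without a call. No member was called where it was listed at 0 in all 9 columns of either condition. For the column totals and the shares of counts held by a cell type, fewer nuclei and less RNA per nucleus cannot be told apart.

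The cell labels were checked against marker lists. The 10 endothelial markers summed to 117 CP10K in the endothelial cells and to at most 2.29 in any other type over all conditions, although the single columns of WT CON neurons and mutant Ex-4 macrophages reached 16.7 and 6.04 CP10K, and the 7 beta cell markers summed to 48.2 CP10K in beta cells and to 7.40 in endothelial cells. Mural and stellate markers, with 6 of 9 in the table, summed to 14.4 CP10K in the columns labelled muscle and to at most 1.17 elsewhere, so that these columns carry mural genes. The 5 neuron markers reached 10.3 CP10K in the columns labelled neurons against 23.8 in delta cells, and the beta cell markers reached 22.6 there, so the data went against that label. All 5 macrophage markers were listed at 0 in every cell type of both Ex-4 conditions.

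Some genes were listed at 0 in all 9 columns of a condition although they had many counts elsewhere. Of the genes with 200 or more counts in the other 5 conditions, this held for 5 in WT CON, 23 in WT FSK, 28 in WT Ex-4, 8 in S983A CON, 0 in S983A FSK and 25 in S983A Ex-4. Kdr was among those of WT FSK, together with the endothelial markers Cdh5, Egfl7, Plvap and Esm1. Its level in the other 5 conditions would have given 53.6 to 101 counts in the endothelial column of WT FSK, where Flt1 had 305 counts. No level or ratio was therefore read for Kdr in WT FSK, and Angpt1, listed at 0 throughout both Ex-4 conditions, was treated in the same way.

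In GRCm39 with GENCODE M39, the ligand genes are short: Vegfa lies at chr17:46327919-46343309 on the minus strand and spans 15.4 kb, and Vegfb at chr19:6958447-6965127, also on the minus strand, spans 6.68 kb. The receptor genes are long, with Flt1 at chr5:147498414-147662826 (minus, 164 kb), Kdr at chr5:76093487-76139884 (minus, 46.4 kb), Nrp1 at chr8:129085085-129231082 (plus, 146 kb), Nrp2 at chr1:62742444-62857854 (plus, 115 kb) and Tek at chr4:94627291-94763224 (plus, 136 kb). Angpt1 at chr15:42288058-42540417 (minus) spans 252 kb. Vegfb overlaps Trpt1 on the opposite strand, and the sources used here do not say if strand was used in counting, so reads of the pair may not have been told apart. No gene overlapping the other 7 members was in the table. Because nuclear RNA is rich in introns, receptor levels are compared below per kb of gene, with per kb of exon beside it. Where genes are compared by counts, as Angpt2 with Angpt1, gene length is not taken into account.

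Both treatments act through cAMP, so the 250 bases before the RefSeq start sites (GRCm38.p6) were searched on both strands for the cAMP response element TGACGTCA, its short core (TGACG, read as CGTCA on the other strand), the hypoxia response core (ACGTG, read as CACGT) and the ETS core (AGGAAG, read as CTTCCT). Entries were found for 7 of the 8 members, not for Angpt1. The full element holds the short core on each strand. Over the 32851 promoters of the same window, 1.55% held TGACGTCA, 17.8% the short core, 16.6% the hypoxia core and 29.5% the ETS core. Flt1 was the member with the full element, at positions -81 to -74 from its start, and it held the ETS core at positions -129 and -53. The first start of Vegfa, and those of Vegfb, Kdr, Nrp2 and Tek, held none of the 4 motifs, Nrp1 held the ETS core, and a second, internal Vegfa entry held the short cAMP core and the hypoxia core in overlapping positions. A match is a string of letters and not a shown binding site, and its absence here says nothing of other regions.

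The windows of the ligand, of its 2 receptors and of Nrp2 are shown for their contrast, 5′ to 3′ on the strand of the gene, with the searched cAMP and hypoxia motifs in capitals. They are Vegfa at chr17:46032378-46032627, Flt1 at chr5:147726012-147726261 and Kdr at chr5:75978456-75978705, all on the minus strand, and Nrp2 at chr1:62703067-62703316 on the plus strand, in GRCm38.p6.
Vegfa: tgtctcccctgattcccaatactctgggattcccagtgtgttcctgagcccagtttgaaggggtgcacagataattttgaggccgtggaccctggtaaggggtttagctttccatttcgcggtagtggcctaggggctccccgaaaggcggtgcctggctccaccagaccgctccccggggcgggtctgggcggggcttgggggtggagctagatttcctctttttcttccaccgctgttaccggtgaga
Flt1: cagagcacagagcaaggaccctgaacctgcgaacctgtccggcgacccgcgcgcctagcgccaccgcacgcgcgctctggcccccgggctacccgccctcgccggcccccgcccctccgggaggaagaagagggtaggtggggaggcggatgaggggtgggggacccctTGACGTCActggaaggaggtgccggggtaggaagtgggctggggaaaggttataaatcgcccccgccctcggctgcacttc
Kdr: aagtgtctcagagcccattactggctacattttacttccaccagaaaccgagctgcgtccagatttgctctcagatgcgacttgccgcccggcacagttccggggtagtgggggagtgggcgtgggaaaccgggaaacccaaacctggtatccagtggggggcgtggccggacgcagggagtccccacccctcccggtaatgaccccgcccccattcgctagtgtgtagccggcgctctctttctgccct
Nrp2: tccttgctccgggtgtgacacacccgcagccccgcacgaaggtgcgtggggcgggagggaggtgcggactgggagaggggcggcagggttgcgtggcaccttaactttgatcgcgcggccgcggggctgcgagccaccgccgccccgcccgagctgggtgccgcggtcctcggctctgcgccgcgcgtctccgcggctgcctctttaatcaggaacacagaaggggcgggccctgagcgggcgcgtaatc

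Summed over the 6 conditions, Vegfa stood at 6.61 CP10K in beta cells (10074 counts, interval 6.49 to 6.74), 8.36 in alpha cells, 4.98 in delta cells and 3.63 in PP cells. Its pooled level was highest in the muscle columns at 19.1 CP10K (588 counts, interval 17.6 to 20.7) and lowest in the endothelial columns at 1.54 CP10K (107 counts, interval 1.26 to 1.86). These sums weight the conditions unequally, and their order was not that of each condition: muscle stood at 5.84 CP10K against 5.92 in beta cells of WT CON, and at 8.51 against 8.99 in WT Ex-4. Alpha cells, above beta cells in the sums, were below them in WT CON and in mutant CON and Ex-4, and in all 5 of these pairs the intervals overlapped. In the sums, the columns labelled neurons (6.14) overlapped beta cells and macrophages (3.498) and ductal cells (2.92) overlapped PP cells. Beta cells, the most abundant type, held 64.8% of all Vegfa counts (interval 64.0 to 65.5), alpha cells 19.0% and delta cells 9.52%. When each cell type was weighted alike by its mean CP10K, the share of beta cells was 13.3% and that of the muscle columns 32.6%.

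**Figure D1:**
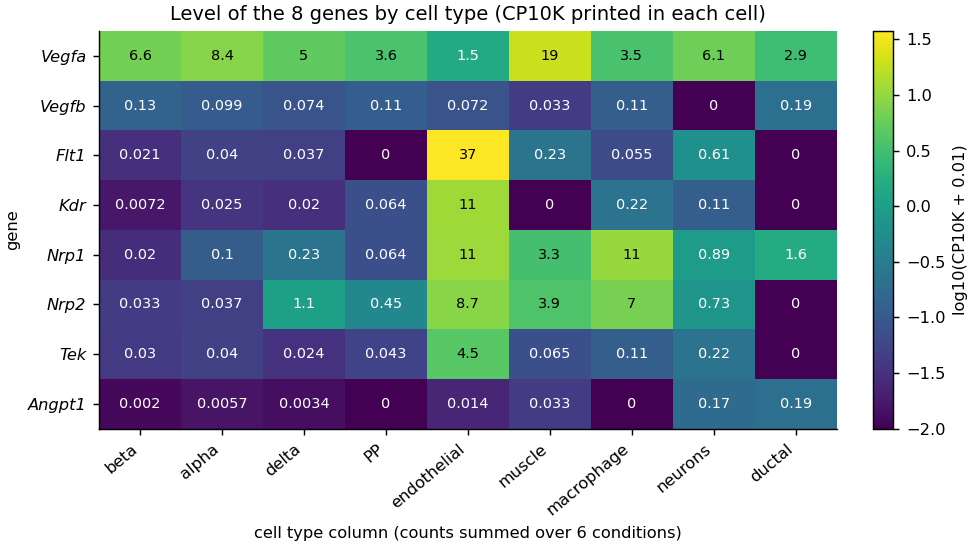
Level of the 8 genes (rows) in the 9 cell types (columns), counts summed over the 6 conditions; the number in each cell is CP10K and the color is log10(CP10K + 0.01). Flt1, Kdr and Tek are highest in the endothelial column, Nrp1 and Nrp2 also in macrophages and muscle, and Vegfa is spread over the other types; the Kdr sum includes the zeros of WT FSK.

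In beta cells, Vegfa of untreated WT islets measured 5.92 CP10K (1784 counts), against 2.52 after FSK (779 counts) and 8.99 after Ex-4 (2681 counts). The Med14 S983A columns gave 11.6 CP10K in CON (2234 counts), 2.40 in FSK (553 counts) and 10.7 in Ex-4 (2043 counts). The 2 FSK columns were the lowest and their intervals overlapped (2.34 to 2.70 and 2.21 to 2.61), whereas untreated mutant beta cells lay above untreated WT cells with intervals well apart (11.1 to 12.1 against 5.65 to 6.20).

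Delta cells were likewise lowest in the FSK columns, though here WT FSK lay below mutant FSK with intervals apart, with WT values of 3.73 (CON), 1.22 (FSK) and 6.67 CP10K (Ex-4), and 7.89, 2.20 and 7.60 CP10K in mutant CON, FSK and Ex-4. Alpha cells were not lower in WT FSK: WT alpha cells held 4.98 (CON), 6.94 (FSK) and 9.24 CP10K (Ex-4), and mutant ones 11.1, 5.47 and 10.2 CP10K. PP cells, with 5 to 56 counts a column, ranged from 1.05 CP10K in WT FSK to 4.80 in mutant Ex-4, with FSK over CON at 0.273 in WT (interval 0.0814 to 0.731) and 0.568 in the mutant (0.334 to 0.938). The beta and alpha markers did not stay level in their own columns: in the order WT CON, FSK, Ex-4 and mutant CON, FSK, Ex-4, they summed to 60.03, 46.5, 47.4, 44.0, 42.8 and 44.0 CP10K in beta cells and to 93.2, 124.8, 38.9, 39.9, 102 and 37.8 in alpha cells. Alpha columns also held beta markers at 33.4 CP10K in WT CON and at 12.04 to 19.2 in the other 5. The part of these shifts in the Vegfa values was not tested.

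The WT Ex-4 columns of the 3 main endocrine types held more Vegfa than the WT CON columns. The ratio of WT Ex-4 to WT CON was 1.52 in beta cells (interval 1.43 to 1.61), 1.85 in alpha cells (1.57 to 2.20) and 1.79 in delta cells (1.45 to 2.21), and all 3 were called. The background was 35.1% of all genes for beta, 27.8% for alpha and 25% for delta cells, and the median log2 ratio of all beta cell genes was 0.22. Short genes as a class were higher in it: the 1133 beta cell genes of Vegfa's length class (genes of like span) had a median log2 ratio of 0.57, beside 0.60 for Vegfa itself, which left 0.03. In delta cells the same step took Vegfa from 0.84 to 0.02, and in alpha cells from 0.89 to 0.38. This setting was chosen after seeing the data.

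In Med14 S983A islets the ratio of Ex-4 to CON was 0.920 for beta cells (interval 0.866 to 0.977), 0.912 in alpha cells (0.829 to 1.00) and 0.963 in delta cells (0.841 to 1.10), and none of these was called. The share of genes called was 4.12% for beta, 4.29% for alpha and 4.28% for delta cells, so that few genes of any kind differed between these 2 columns. Beta cell Vegfa was thus above its control in WT and slightly below it in the mutant, but the difference between genotypes was not tested, and the mutant control column (11.6 CP10K) already lay above WT Ex-4 (8.99 CP10K).

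FSK went with the opposite pattern in beta and delta cells. WT FSK over WT CON was 0.425 in beta cells (interval 0.390 to 0.463; 34.4% of genes called) and 0.327 in delta cells (0.232 to 0.453; 22.5% called). Mutant FSK over mutant CON was 0.207 in beta cells (0.188 to 0.227; 46.9% called) and 0.279 in delta cells (0.229 to 0.338; 34.7% called). All genes of the beta columns had median log2 ratios of -0.32 in WT and -0.16 in the mutant. Vegfa was called lower in all 4, and taking out the median of genes of like length left log2 differences of -0.64 and -1.38 in WT and of -1.73 and -1.56 in the mutant, beta cells first. Alpha cells split by genotype, with a ratio of 1.39 in WT (interval 1.14 to 1.71; 14.1% called), which was not called, and of 0.491 in the mutant (0.437 to 0.552; 23.4% called), which was.

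Without treatment, Med14 S983A over WT gave 1.96 in beta cells (interval 1.84 to 2.09; 41.2% of genes called), 2.23 in alpha cells (1.92 to 2.61; 32.6% called) and 2.12 in delta cells (1.74 to 2.59; 31.9% called). Vegfa was called higher in all 3 types, and relative to genes of like length the log2 ratios of 0.97, 1.16 and 1.08 became 0.53, 0.62 and 0.46, which is below 1.5-fold in beta and delta cells. The comparisons of WT Ex-4, WT FSK and mutant CON share the WT CON column, so that any peculiarity of it enters all of them.

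**Figure D2:**
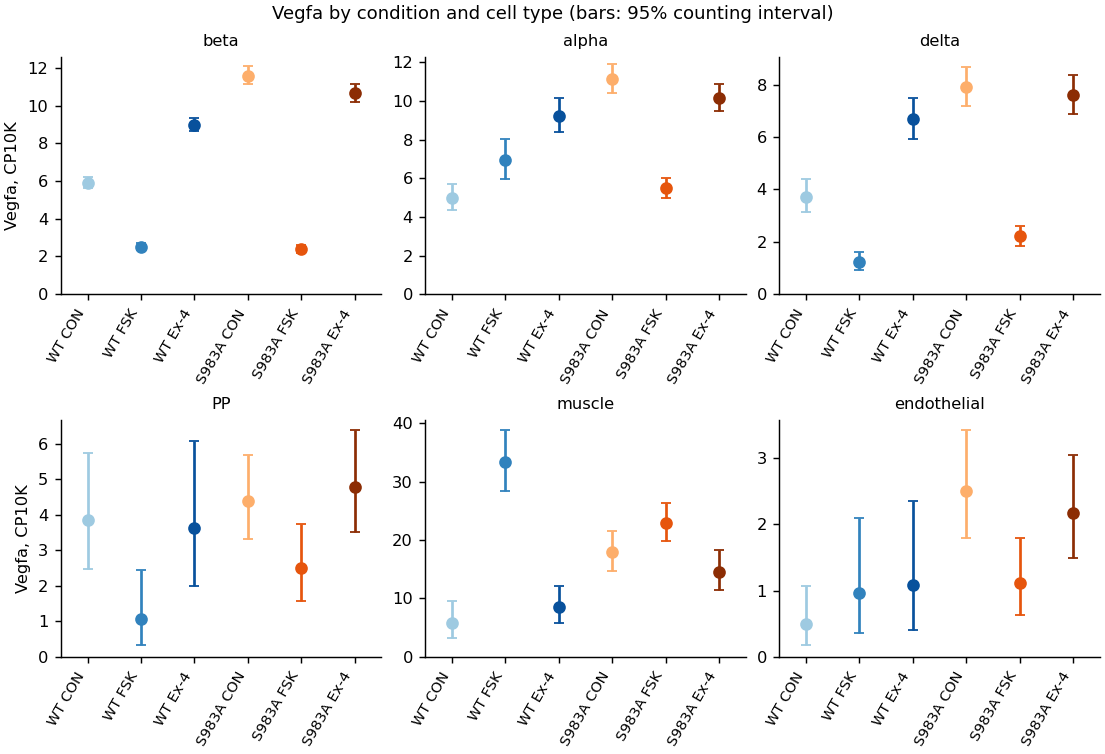
Vegfa level (CP10K, vertical axis from 0, its own scale in each panel) in 6 conditions (horizontal axis) for beta, alpha, delta, PP, muscle and endothelial columns; bars are 95% counting intervals of 1 pooled column each. Both FSK points are lowest in beta and delta cells, while WT FSK is highest in muscle at 33.3 CP10K.

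Ribosomal RNA linked and mitochondrial genes, 14 in the table of which 6 are mitochondrial, moved across the same columns. In beta cells they took 3.77%, 2.74% and 9.84% of counts in WT CON, FSK and Ex-4, and 12.3%, 2.78% and 15.5% in mutant CON, FSK and Ex-4. The 3 columns with the larger shares were the 3 with most Vegfa, and their part in the result was not tested; with these genes taken out of the column totals, beta cell Vegfa was 6.15, 2.59 and 9.98 CP10K in WT CON, FSK and Ex-4 and 13.2, 2.47 and 12.6 CP10K in the mutant. The genes whose pattern over the 24 columns of beta, alpha, delta and PP cells was most like that of Vegfa, among 2086 genes compared by Pearson's r of log2(CP10K + 1), were Lars2 (r = 0.927), Gphn (0.910), Safb (0.903), Rn18s-rs5 (0.900) and Ylpm1 (0.900). Lars2, Gphn and Rn18s-rs5 belong to the ribosomal RNA linked list. These 24 points share libraries, conditions and column totals, and the r values are a description.

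In the columns labelled muscle, Vegfa was highest with FSK, not lowest as in beta and delta cells. WT muscle columns held Vegfa at 5.84 CP10K untreated (15 counts), 33.3 after FSK (161 counts) and 8.51 after Ex-4 (30 counts), and those of the mutant at 17.9 (110 counts), 23.0 (200 counts) and 14.5 (72 counts) in CON, FSK and Ex-4. The WT FSK column stood above all other columns of this type with intervals apart from them (28.4 to 38.9 against 19.9 to 26.4 for the next), and the ratio to WT CON was 5.70 (interval 3.36 to 10.4). In the mutant the ratio of FSK to CON was 1.29 (interval 1.01 to 1.64). Mural and stellate markers, 6 detected of 6 in the table over all conditions, summed to 4.55 CP10K in the WT FSK muscle column, against 11.1 to 25.8 in the other 5. Of the 9 markers on that list, 0 had counts in every condition, so the columns did not sum the same markers and these sums are not alike. Their part was not tested. Beta cell markers summed over the 6 conditions stood in the muscle columns at 12.4% of their beta cell level, and Vegfa there at 289% of its beta cell level.

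In endothelial columns the 107 Vegfa counts came to 23.2% of the beta cell level, and the beta cell markers to 15.4% of theirs. Column by column the markers stood at 4.18% to 26.5% and Vegfa at 8.28% to 46.1%. Vegfa ranged from 0.490 CP10K in WT CON to 2.51 in mutant CON on 6 to 40 counts a column. The mutant CON to WT CON ratio of 5.12 rests on 40 against 6 counts (interval 2.16 to 14.8), and mutant FSK over mutant CON was 0.441 (interval 0.231 to 0.806). How much of these counts came from RNA of other cells was not tested.

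Vegfb, the ligand of Flt1 that does not bind Kdr, was sparse. It held 197 counts over the 6 beta columns, 0.129 CP10K, and 35 and 22 counts in alpha and delta cells. By condition, beta cells of WT islets had 38, 13 and 72 counts untreated, with FSK and with Ex-4 (0.126, 0.0420 and 0.242 CP10K) and 30, 13 and 31 in the mutant (0.156, 0.0564 and 0.162 CP10K). The WT Ex-4 ratio of 1.92 (interval 1.28 to 2.92) was called higher, and those of FSK, 0.333 in WT (0.163 to 0.639) and 0.362 in the mutant (0.173 to 0.716), were called lower; relative to genes of like length the WT Ex-4 log2 ratio turned from 0.94 to -0.09, WT FSK went from -1.59 to -0.64, and mutant FSK from -1.47 to -0.35, below 1.5-fold. Untreated mutant and WT beta cells had overlapping levels (ratio 1.24, interval 0.739 to 2.05). Alpha cell Vegfb was called lower with FSK in the mutant, on 3 against 17 counts (log2 ratio -2.46, and -2.22 relative to genes of like length). It was not called there for mutant Ex-4 over mutant CON or for mutant CON over WT CON.

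Angpt1 was barely seen, with 12 counts in all 54 columns. No column held more than 2, and the muscle columns, where mural genes were read, held 1. It takes no further place in the comparisons.

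Flt1 was the most counted receptor, with 2603 counts and 37.4 CP10K in the endothelial columns (interval 36.0 to 38.9), and these held 97.2% of all its counts (interval 96.5 to 97.8). Kdr held 793 counts there and 95.8% of its total, and Tek 311 counts and 80.2%. In beta cells the 3 receptors stood at 0.0210, 0.00722 and 0.0302 CP10K, which is 0.0562%, 0.0634% and 0.676% of their endothelial levels, beside 0.221% for the summed endothelial markers. Flt1 and Kdr were thus lower in beta cells, relative to endothelium, than the markers as a group. Kdr counts in beta cells were 1 in WT CON, 4 in WT Ex-4, and 1, 2 and 3 in mutant CON, FSK and Ex-4, too few for a ratio.

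Per kb of gene, and over the 5 conditions other than WT FSK, Kdr was at 0.270 CP10K per kb in the endothelial columns (interval 0.251 to 0.289) and Flt1 at 0.221 (0.212 to 0.230), so that the order of the 2 receptors turned once their lengths of 46.4 and 164 kb were set against their counts. Nrp1 at 0.0795 and Nrp2 at 0.0739 CP10K per kb overlapped in their intervals, and Tek was lowest of the 5 at 0.0314. Per kb of exon the order was Flt1 (2.66), Kdr (1.36), Nrp1 (0.761), Tek (0.710) and Nrp2 (0.708), the last 3 not apart.

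The 5 genes most like Kdr over the 9 cell types, among 2820 genes with 50 or more endothelial counts, were Emcn (r = 0.998), Rasgrp3 (0.998), Adgrl4 (0.998), Egfl7 (0.998) and Robo4 (0.997), with Tek at 0.997 and Flt1 at 0.991. Nrp1 and Nrp2 had lower r values with Kdr (0.631 for each) and were also counted in macrophages and muscle. Egfl7, like Kdr, was listed at 0 in WT FSK. These r values over 9 points, each a sum over 6 conditions, are dominated by the endothelial point and are a description.

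Flt1 in endothelial columns of WT islets measured 51.9 CP10K untreated (635 counts), 49.1 with FSK (305 counts) and 39.4 with Ex-4 (219 counts). The mutant gave 29.3 in CON (467 counts), 45.8 in FSK (662 counts) and 20.7 in Ex-4 (315 counts). Mutant CON and Ex-4 were the lowest columns, and mutant FSK lay within the range of WT. Untreated mutant over WT was 0.565 (interval 0.500 to 0.638), called lower, and mutant FSK over mutant CON was 1.56 (1.39 to 1.76), called higher. WT FSK over WT CON was 0.946 (0.822 to 1.09), and Ex-4 over CON 0.760 in WT (0.649 to 0.888) and 0.708 in the mutant (0.611 to 0.818), none of them called. Relative to genes of like length both called log2 ratios fell below 1.5-fold, from -0.82 to -0.47 for mutant over WT and from 0.64 to 0.40 for mutant FSK, and the latter was 0.56, also below it, after rescaling without ribosomal RNA linked and mitochondrial genes.

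Endothelial markers moved with these columns. The 6 markers never listed at 0 over a condition (Pecam1, Ptprb, Emcn, Erg, Adgrl4 and Cyyr1) summed to 119, 114 and 123 CP10K in WT CON, FSK and Ex-4, and to 69.4, 104 and 54.5 CP10K in mutant CON, FSK and Ex-4. Of the 10 endothelial markers, 6 were called lower in mutant CON against WT CON (median log2 ratio -0.70, all genes -0.09), beside 14.3% of all genes. In mutant FSK against mutant CON, 6 were called higher (median 0.62, all genes 0.06), beside 11.3% of all genes. Flt1 was also set against the sum of the 6 markers never listed at 0, a measure added after seeing the data. As a percent of that sum it was 43.4, 42.8 and 32.0 in WT CON, FSK and Ex-4. In mutant CON, FSK and Ex-4 it was 42.2, 44.1 and 38.1. On that scale the intervals of WT CON (39.5 to 47.7), mutant CON (37.8 to 47.1) and mutant FSK (40.2 to 48.3) overlapped, and WT Ex-4 (27.4 to 37.3) lay below WT CON.

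**Figure D3:**
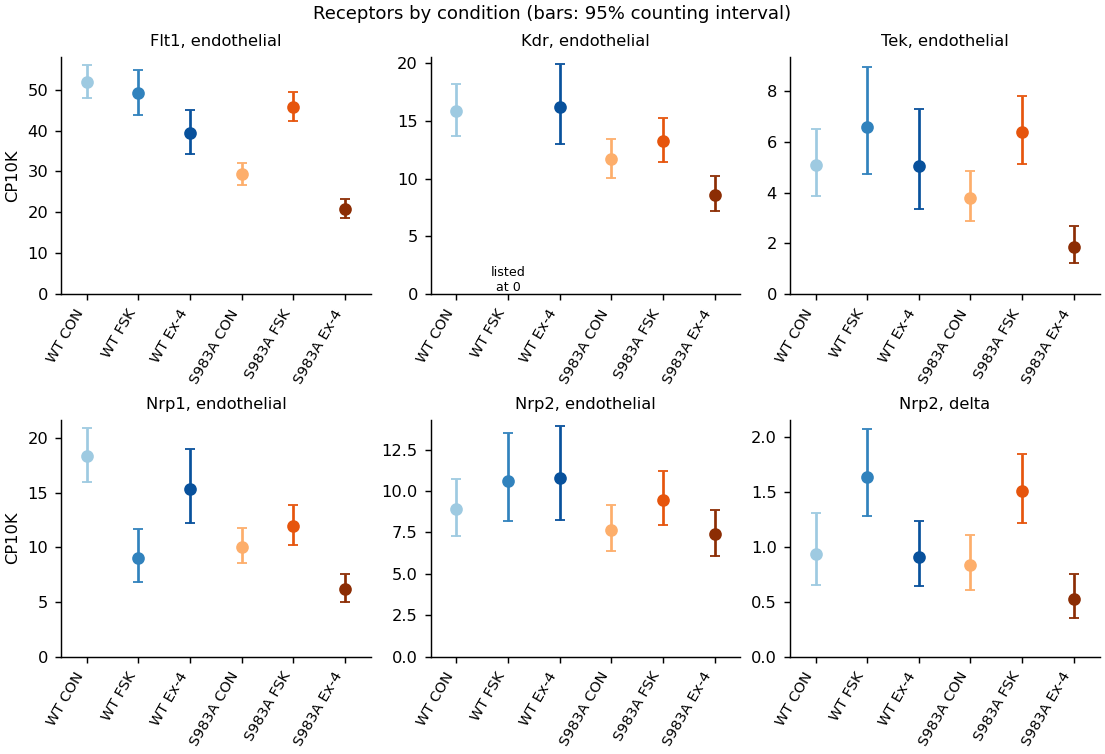
Levels (CP10K, vertical axes from 0, each panel on its own scale) of Flt1, Kdr, Tek, Nrp1 and Nrp2 in endothelial columns and of Nrp2 in delta cells for the 6 conditions; bars are 95% counting intervals. Flt1 is lowest in mutant Ex-4 at 20.7 CP10K, Kdr is listed at 0 in WT FSK, and Nrp2 in delta cells is highest in the 2 FSK columns.

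Kdr measured 15.8 CP10K in WT CON (194 counts) and 16.2 in WT Ex-4 (90 counts), and 11.7, 13.3 and 8.63 CP10K in mutant CON, FSK and Ex-4 (186, 192 and 131 counts). The 2 WT columns overlapped each other and lay above mutant Ex-4 (interval 7.21 to 10.2). No Kdr ratio was called: Ex-4 over CON was 1.02 in WT (interval 0.787 to 1.32) and 0.739 in the mutant (0.586 to 0.929), mutant FSK over CON was 1.14 (lower bound 0.926), and mutant CON over WT CON was 0.737 (0.599 to 0.906). As a percent of the 6 endothelial markers, Kdr was 13.3 in WT CON and 16.8 in mutant CON, with overlapping intervals.

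WT endothelial Tek was 5.06 CP10K untreated (62 counts), 6.59 with FSK (41 counts) and 5.04 with Ex-4 (28 counts), and the mutant had 3.77, 6.37 and 1.84 CP10K in CON, FSK and Ex-4 (60, 92 and 28 counts). Mutant Ex-4 was the lowest column, with an interval (1.23 to 2.67) below those of the other 5. Within the mutant, Tek was called lower with Ex-4 (ratio 0.490, interval 0.301 to 0.779) and higher with FSK (1.69, interval 1.21 to 2.38). The mutant FSK log2 ratio of 0.76 became 0.54, below 1.5-fold, relative to genes of like length. The WT ratios of 0.996 with Ex-4 (0.613 to 1.58) and 1.30 with FSK (0.856 to 1.96) were not called. As a percent of the 6 markers the mutant columns read 5.43, 6.13 and 3.39 in CON, FSK and Ex-4, with overlapping intervals for CON and Ex-4 (4.11 to 7.04 and 2.24 to 4.93).

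WT endothelial Nrp1 was 18.3 CP10K untreated (224 counts), 9.01 with FSK (56 counts) and 15.3 with Ex-4 (85 counts), and the mutant had 10.0, 11.9 and 6.19 CP10K in CON, FSK and Ex-4. It was called lower in WT FSK against WT CON (ratio 0.492, interval 0.361 to 0.662), in mutant CON against WT CON (0.549, interval 0.445 to 0.675) and in mutant Ex-4 against mutant CON (0.616, interval 0.473 to 0.800). As a percent of the 6 markers, the WT FSK column stayed low, at 7.87 (interval 5.88 to 10.3) against 15.3 in WT CON (13.3 to 17.7), whereas mutant CON at 14.5 (12.2 to 17.1) overlapped both WT CON and mutant Ex-4 (11.4, interval 9.08 to 14.1). Relative to genes of like length, the mutant CON and mutant Ex-4 log2 ratios became -0.51 and -0.54, both below 1.5-fold. Mutant FSK over CON was 1.19 (interval 0.9503 to 1.48).

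Nrp2 in the same columns varied least, from 7.37 CP10K in mutant Ex-4 to 10.8 in WT Ex-4, and none of its 5 ratios, which ran from 0.860 to 1.24, was called. As a percent of the 6 markers it was 7.46 in WT CON (interval 6.08 to 9.06), 9.27 in WT FSK (7.09 to 11.9) and 8.77 in WT Ex-4 (6.62 to 11.4). The mutant read 11.03 in CON (9.07 to 13.3), 9.12 in FSK (7.60 to 10.9) and 13.5 in Ex-4 (11.02 to 16.5). On that scale the mutant lay higher in CON with intervals apart, while the intervals of the genotypes overlapped in FSK and in Ex-4. Over all members in endothelial cells, 0 of 5 measured genes were called with Ex-4 in WT (11.7% of all genes), 2 of 6 with Ex-4 in the mutant (13.2%), 1 of 4 with FSK in WT (15.1%), 3 of 6 with FSK in the mutant, higher Flt1 and Tek and lower Vegfa (16.8%), and 3 of 6 for mutant against WT CON (21.5%). These counts leave out Kdr in WT FSK.

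**Figure D4:**
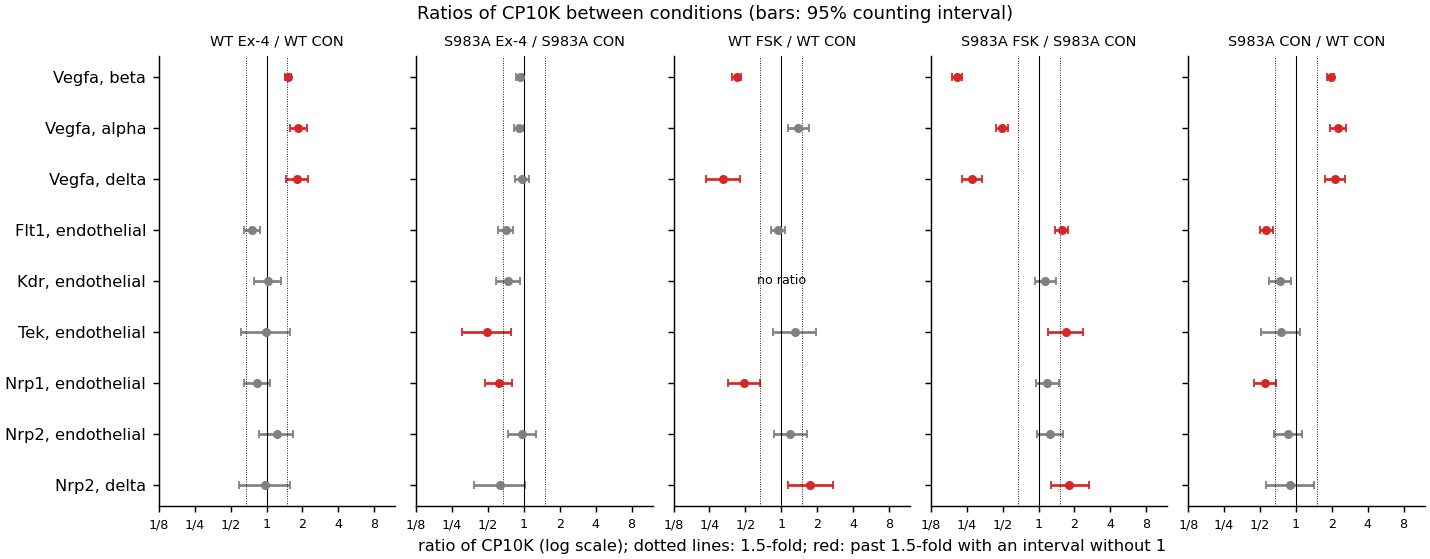
Ratios of CP10K (horizontal axis, log scale) for 5 comparisons (panels), for Vegfa in beta, alpha and delta cells, 5 receptors in endothelial cells and Nrp2 in delta cells; bars are 95% counting intervals, dotted lines mark 1.5-fold, and red marks ratios past it with an interval without 1. Vegfa ratios lie left of 1 with FSK in beta and delta cells, and Kdr has no ratio for WT FSK.

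The neuropilins had sources outside the endothelium. Summed over the 6 conditions, macrophage columns held Nrp1 at 10.7 CP10K, 93.7% of its endothelial level, and Nrp2 at 6.99 CP10K, 80.3%, while endothelial markers stood there at 0.561% of theirs. These sums weight the conditions unequally. The mean CP10K of the 6 columns was 8.76 in macrophages and 11.8 in endothelium for Nrp1, and 7.34 and 9.14 for Nrp2. Macrophage Nrp1 of WT islets was 22.1 CP10K untreated (92 counts), 11.6 with FSK (56 counts) and 6.49 with Ex-4 (11 counts), and 5.58 in mutant CON (26 counts), 6.85 in mutant FSK (10 counts) and 0 in mutant Ex-4, where the 14889 counts of the column allow up to 2.01 CP10K (3 counts) at 0. The WT CON level lay above all others of this type. The muscle columns held Nrp1 at 28.6% and Nrp2 at 44.5% of the endothelial level.

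Among endocrine types, pooled Nrp2 was highest in delta cells, followed by PP cells at 0.450 CP10K (21 counts, interval 0.279 to 0.689). Delta cells held 314 Nrp2 counts, 24.8% of all (interval 22.5 to 27.3), at 1.06 CP10K (0.943 to 1.18), against 0.0335 CP10K in beta and 0.0368 in alpha cells. Relative to endothelium this was 12.1%, beside 0.262% for the summed endothelial markers. In WT it was 0.938 CP10K untreated (34 counts), 1.64 with FSK (70 counts) and 0.903 with Ex-4 (39 counts), and 0.830, 1.505 and 0.525 CP10K in mutant CON, FSK and Ex-4 (47, 95 and 29 counts). The 2 FSK columns were the highest, with ratios to CON of 1.75 in WT (interval 1.14 to 2.71) and 1.81 in the mutant (1.26 to 2.63), both called higher (the mutant log2 ratio of 0.86 became 0.47, below 1.5-fold, relative to genes of like length), while Ex-4 over CON was 0.963 (0.592 to 1.57) and 0.632 (0.384 to 1.03). The 4 delta cell markers summed to 5.38, 9.73 and 5.58 CP10K in these WT columns and to 4.36, 7.68 and 4.45 in the mutant, and so were also highest with FSK; their part was not tested. Nrp1 in delta cells, on 7 to 23 counts, gave FSK ratios of 1.82 (0.697 to 5.27) and 1.88 (0.878 to 4.26), neither called.

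Among 7 other ligands and receptors, Angpt2, the Tek ligand of endothelial cells, was counted far more often than Angpt1. Its endothelial levels were 9.97, 23.5 and 10.4 CP10K in WT CON, FSK and Ex-4, and 4.46, 14.6 and 5.47 CP10K in the mutant. FSK over CON was 2.36 in WT (interval 1.84 to 3.02) and 3.28 in the mutant (2.49 to 4.35), both called higher, and mutant CON over WT CON was 0.447 (0.329 to 0.604), called lower. As a percent of the 6 endothelial markers Angpt2 went from 8.35 (interval 6.88 to 10.0) to 20.51 (17.0 to 24.5) with FSK in WT and from 6.42 (4.98 to 8.17) to 14.0 (12.1 to 16.2) in the mutant. In beta cells Angpt2 went from 0.0764 to 0.417 CP10K with FSK in WT (ratio 5.46, interval 3.48 to 8.92) and from 0.0727 to 0.247 in the mutant (3.40, interval 1.87 to 6.61). Angpt2 overlaps Mcph1 on the opposite strand, which is also in the table. Flt4 (VEGFR3), the receptor of VEGF-C, was at 3.43 and 3.96 CP10K in the endothelial columns of WT CON and Ex-4. In mutant CON, FSK and Ex-4 it was at 4.39, 7.20 and 2.31 CP10K. Its mutant ratios were 1.64 for FSK (1.20 to 2.25) and 0.524 for Ex-4 (0.339 to 0.798). Flt4 and the orphan receptor Tie1 were listed at 0 in beta, alpha, delta and endothelial columns of WT FSK, as Kdr was. Tie1 was also at 0 in those of WT Ex-4. No level or ratio was read from these zeros. Vegfc in delta cells was 0.166 CP10K in WT CON and 0.842 in WT FSK, and 0.0530 and 0.792 in mutant CON and FSK. The ratios were 5.09 (2.12 to 14.8, 36 against 6 counts) and 14.9 (4.83 to 74.9, 50 against 3 counts). In beta cells Vegfc was instead called lower with FSK in WT (0.465, interval 0.262 to 0.798, 21 against 44 counts) and not called with FSK in the mutant. It was also called lower there in WT Ex-4 (0.276) and mutant CON (0.427) against WT CON.

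Of the 10 genes of the hypoxia pathway, which controls Vegfa transcription, 8 were in the table. In beta cells 2 of 7 measured were called lower with FSK in WT, near the 27.6% of all genes called lower, and 0 were higher; among the lower was Egln1, an oxygen-sensing prolyl hydroxylase (ratio 0.526, interval 0.396 to 0.693). In the mutant 2 of 6 were higher and 2 lower with FSK, beside 19.5% and 27.4% of all genes, and Hif1a, the inducible factor, had 0.319 and 0.300 CP10K in WT CON and FSK and 0.301 and 0.421 in the mutant. The median log2 ratio of the list was -0.21 in WT (all genes -0.32) and 0.29 in the mutant (all genes -0.16). In delta cells FSK went with higher Epas1 (HIF-2α) in both genotypes, from 0.0276 to 0.702 CP10K in WT, where the control had 1 count and the interval of the ratio ran from 4.23 to 1037, and from 0.159 to 0.824 CP10K in the mutant (ratio 5.18, interval 2.53 to 11.96). Over the list, 5 of 7 measured genes were higher in mutant delta cells with FSK (Hif1a, Epas1, Arnt, Arnt2 and Egln1; median log2 ratio 1.20, all genes 0.07), where 20.2% of all genes were called higher, and 1 of 5 in WT, Epas1, where 10.9% were.

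Class 3 semaphorins, a family that includes other ligands of the neuropilins, were counted in different types. Summed over the conditions, Sema3f was found mainly in endothelial cells (1.12 CP10K) and Sema3c most in ductal cells (4.28 CP10K). Sema3e was found most in PP (3.41 CP10K) and delta cells (2.78 CP10K). Sema3f was at 0 in beta, alpha, delta and endothelial columns of WT FSK, WT Ex-4 and mutant Ex-4, and its endothelial sum includes these zeros. The ductal columns held only 51442 counts in all. Sema3e, which acts through the plexin Plxnd1, was 3.73 CP10K in WT CON delta cells, 6.67 with FSK and 1.25 with Ex-4, and 0.918 and 4.02 in mutant CON and FSK; all 4 ratios (1.79 for WT FSK, 0.336 for WT Ex-4, 4.38 for mutant FSK and 0.246 for mutant CON over WT CON) were called. Sema3c in beta cells was 0.0863 CP10K in WT CON and 0.574 in WT Ex-4 (ratio 6.65, interval 4.38 to 10.5), and in delta cells its FSK ratios were 4.04 in WT (2.20 to 8.01) and 9.35 in the mutant (4.32 to 24.1). In endothelial columns Plxna4, a neuropilin partner, stood at 31.8 CP10K over all conditions and was called higher with FSK in the mutant (ratio 2.34, interval 2.04 to 2.67) and lower in mutant CON against WT CON (0.477, interval 0.414 to 0.549), whereas Plxnd1 went the other way in both (0.565 and 1.82). Of the 11 list members in the table, 4 were measured in mutant FSK endothelium, with 1 higher and 1 lower, beside 11.3% and 5.58% of all genes.

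Of 18 genes of receptor signaling, 17 were in the table. In endothelial cells, 5 of 13 measured were called lower in mutant CON against WT CON (median log2 ratio -0.38, all genes -0.09), where 14.3% of all genes were called lower, among them Ptprb, the phosphatase that restrains Tek (8.35 against 14.1 CP10K; ratio 0.591, interval 0.468 to 0.745), and 0 were higher. With FSK in the mutant, 4 of 14 were higher and 0 lower (median 0.47, all genes 0.06), where 11.3% of all genes were called higher, Ptprb again among them (ratio 1.58, interval 1.26 to 1.99). In WT, FSK called 1 of 12 higher, Ptk2, the focal adhesion kinase (1.51, interval 1.10 to 2.07), and 1 lower, Prkca (0.259, interval 0.0796 to 0.659), beside 5.96% and 9.17% of all genes. Prkca rests on 5 against 38 counts, and its pooled level was higher in beta cells (11.4 CP10K) than in endothelial cells (1.90). Endothelial columns held beta cell markers at 15.9% of their beta cell level in WT CON and at 6.57% in WT FSK. The part of beta cell RNA in the Prkca ratio was not tested. The called counts of this list follow the endothelial marker sums given above, which include Ptprb itself, and that part was not tested.

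**Figure D5:**
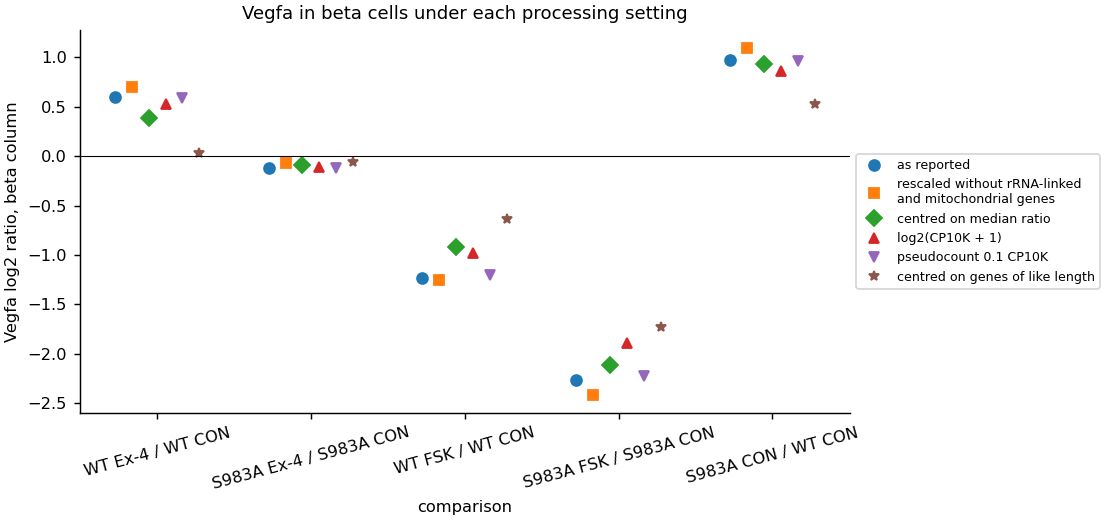
Log2 ratio of Vegfa in beta cells (vertical axis) for the 5 comparisons (horizontal axis) under the reported setting and 5 others (symbols), each point a ratio of 2 pooled columns. The FSK ratios stay below 0 in each setting, and the WT Ex-4 ratio goes from 0.60 to 0.03 when genes of like length are the reference.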

How the data were processed

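Islet nuclei of 6 conditions (WT and Med14 S983A; CON, FSK, Ex-4) were barcoded together in 8 sublibraries. According to the methods and labels, the authors aligned reads to mm39 with split-pipe, removed nuclei of extreme depth or high mitochondrial share, normalized with SCTransform, integrated with Harmony, labelled clusters from their markers and took equal numbers of nuclei per condition. The sources used here give no annotation release or strand setting, and do not say if the pooled counts were raw. The deposited file holds natural log values that the authors made by scaling each column to 10000 counts and adding 1.

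Counts were recovered from them, with 100% of values within 0.001 of a whole number. Levels had exact Poisson intervals, ratios conditional binomial intervals and shares Clopper-Pearson intervals (95%); the limit at a count of 0 was 3 counts. No test was run, as there was 1 column per condition and cell type. The 5 comparisons were made in beta, alpha, delta and endothelial columns, with the call rule given above (1.5-fold, 20 counts). Genes named were the 8 members, genes of 4 pathway lists past the threshold or most abundant, the 5 most like Vegfa and Kdr, and markers. Members and lists were chosen with earlier results of these data known. Alternatives were rescaling without ribosomal RNA linked and mitochondrial genes, median centring, the log2(CP10K + 1) scale, a pseudocount of 0.1 CP10K, other thresholds and count minimums, and, added after seeing the data, centring on genes of like length, leaving out genes listed at 0 over a condition, and levels relative to endothelial markers. The interval and call code was tested on simulated data. Work was done in Python 3.11.15 (scipy 1.17.1 for intervals, pandas 2.3.3 and numpy 2.4.6 for tables, matplotlib 3.10.9 for plots); gene positions came from GENCODE M39 and promoters from RefSeq (GRCm38.p6).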

Additional observations from a re-analysis of the deposited data

Results flagged for a closer look

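Vegfa differed in direction between the genotypes in 2 comparisons, with both counting intervals leaving out 1. In beta cells the ratio of Ex-4 to CON was 1.52 in WT and 0.920 in Med14 S983A, and in alpha cells the ratio of FSK to CON was 1.39 in WT and 0.491 in Med14 S983A. Relative to genes of like length, the log2 ratios of beta cells with Ex-4 were 0.03 in WT and -0.06 in the mutant. Those of alpha cells with FSK were 0.42 and -0.87. In beta cells the mutant CON column (11.6 CP10K) already lay above WT Ex-4 (8.99 CP10K). Each ratio compares 2 pooled columns, and the difference between genotypes was not tested.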

How the results depend on the processing

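The 57 member ratios in beta, alpha, delta and endothelial columns were each recomputed under 5 settings. Of the 285 values, 254 lay within the counting interval of the reported ratio, 30 left it and 1 called value changed sign (Vegfb in beta cells, WT Ex-4 over WT CON, -0.09 when centred on genes of like length). For Vegfa in beta cells, in log2 units, rescaling without ribosomal RNA linked and mitochondrial genes took WT Ex-4 from 0.60 to 0.70, mutant FSK from -2.27 to -2.42 and mutant CON over WT CON from 0.97 to 1.10. Centring on the median ratio gave 0.39 for WT Ex-4, -0.92 for WT FSK and -2.11 for mutant FSK. The log2(CP10K + 1) scale gave -0.98 for WT FSK, -1.89 for mutant FSK and 0.86 for mutant CON. Centring on genes of like length, added after seeing the data, gave 0.03 for WT Ex-4, -0.64 for WT FSK, -1.73 for mutant FSK and 0.53 for mutant CON, and for Flt1 in endothelial cells 0.40 for mutant FSK and -0.47 for mutant CON. The share of Vegfa counts in beta cells was 13.3% by mean CP10K in place of 64.8%.

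Of genes past 1.5-fold in beta cells, 4096 in WT Ex-4 became 1915 at 2-fold, 2659 at a 100-count minimum and 315 on the log2(CP10K + 1) scale with its 40th percentile filter; 3672 in WT FSK became 2196, 1748 and 226; 5087 in mutant FSK became 3265, 3033 and 790; 4615 in mutant CON became 2444, 2975 and 539; and 442 in mutant Ex-4 became 182, 135 and 5, and 1590 with no count minimum. Over the 5 comparisons, alpha cells had 358 to 2478 calls as reported, 186 to 1603 at 2-fold, 667 to 2747 with no minimum, 63 to 1195 at 100 counts and 4 to 700 on the log2 scale; delta cells had 317 to 2630, 178 to 1750, 564 to 3163, 47 to 1148 and 4 to 732; and endothelial cells had 215 to 640, 173 to 408, 402 to 930, 32 to 222 and 463 to 896, in the same order.

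No paired analysis was possible because each condition has 1 pooled column per cell type and the labels number no replicates of a condition. Among beta, alpha, delta and endothelial columns, depth limits the endothelial ones most, where Tek rests on 28 to 92 counts. The PP, muscle, macrophage, neuron and ductal columns had smaller summed totals still. Depth also limits Vegfb, Angpt1 and receptors in endocrine cells, where most columns hold only a few counts.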
